A study of Homo sapiens with 8 samples.

Results

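The 38 genes described here encode nuclear receptors, and they were taken by symbol from the 56832 gene rows of the count tables, where every one of the 38 was found. They comprise the thyroid hormone receptor genes THRA and THRB, the retinoid X receptor genes RXRA, RXRB and RXRG that encode their heterodimer partners, and receptors for retinoids, vitamin D, fatty acids, oxysterols and steroids together with orphan receptors. Counts came from ribosome-depleted total RNA of Nthy-ORI, an established line of normal human thyroid epithelial cells. All cultures had first spent 24 h in medium without phenol red and with serum stripped by charcoal, which removes hormones. The 4 groups of 2 libraries then received 10 nM T3 (triiodothyronine, the active thyroid hormone) or its NaOH vehicle for 24 h, or 10 nM T3 or vehicle for 6 h. The comparisons address which receptors are expressed at each time and which of them change with T3. The labels do not say whether the 2 libraries of a group come from different cultures. P-values therefore describe the spread between these libraries alone, which may be technical.

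Nuclear receptors are transcription factors that bind DNA through zinc fingers and, in many cases, a small lipophilic ligand through a separate domain. Thyroid hormone receptors bind their response elements mainly as heterodimers with retinoid X receptors, and they recruit corepressors when no hormone is present and coactivators when T3 is bound. THRA gives rise to the T3-binding receptor TR-alpha1 and to a splice form that does not bind T3, and THRB to TR-beta1 and TR-beta2. Many other receptors use the same retinoid X partner, among them that of PPARG, a gene known in the thyroid for its fusion to PAX8 in follicular tumours.

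The libraries held 2517983 to 8201606 reads in genes, so that 3 counts, taken here as the floor, corresponded to 0.366 to 1.19 counts per 1e+06 reads in genes (CPM). The share of reads without a unique alignment was 47.6% to 57.0% at 24 h and 61.2% to 67.4% at 6 h. KLF9 and HR, established T3 targets used here as a check of the labels, were lower at 24 h in the libraries labelled T3 than in those labelled vehicle (log2 fold changes -3.08 and -4.19, edgeR adjusted p = 6.75e-05 and 0.000281). With T3 at 6 h both rose (log2 fold changes 3.95 and 0.77, edgeR adjusted p = 0.0002 and 0.012). Both genes therefore go against the labels at 24 h, and every direction between T3 and vehicle at that time refers to the libraries as labelled. Of 10 thyroid markers 3 were tested, namely PAX8, FOXE1 and HHEX, while TG, TSHR, SLC5A5 and NKX2-1 were at or below 1.51 CPM in every library. The keratin genes KRT8 and KRT18 were present and CDH1 was at or below 1.64 CPM. Summed over 6 fibroblast markers, levels were 629 to 725 CPM (T3) and 1150 to 1250 CPM (vehicle) in the 24 h libraries, and 114 to 120 CPM (T3) and 215 CPM in each (vehicle) in the 6 h libraries. PDGFRA, LUM and THY1 were at or below 0.818 CPM in every library, while PDGFRB had 13.3 to 25.3 CPM. DCN had no count at 24 h and 5 to 12 counts at 6 h. Most of the sum was COL1A1, which was lower with T3 at 24 h and at 6 h (log2 fold changes -0.84 and -0.90, edgeR adjusted p = 0.000703 and 0.000672), and its part in the receptor results was not tested. The 5 endothelial and 6 immune markers summed to at most 2.86 CPM in any library. In bulk RNA, fewer cells that express a receptor and less of its RNA per cell cannot be told apart.

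THRA was the more abundant thyroid hormone receptor transcript at 6 h, and the balance between THRA and THRB was far more even at 24 h. THRA lies on the plus strand at chr17:40058290-40093867 and THRB on the minus strand at chr3:24117153-24495756 (GRCh38). THRA had 18.3 and 17.7 CPM in the 24 h libraries labelled T3, against 25.8 and 32.1 CPM in those labelled vehicle (CPM here and below are scaled by the TMM method, which corrects for library composition). At 6 h THRA had 48.1 and 46.5 CPM with T3, against 82.9 and 63.8 CPM with vehicle. The T3 libraries lay below the vehicle libraries at both times without overlap, and all 24 h libraries lay below all 6 h libraries. THRB had 37.8 and 31.6 CPM (T3) and 29.4 and 41.0 CPM (vehicle) at 24 h. At 6 h THRB had 3.98 and 5.43 CPM with T3, against 6.63 and 9.00 CPM with vehicle. For THRB the T3 and vehicle libraries overlapped at 24 h and not at 6 h, and every 24 h library exceeded every 6 h library. Lack of overlap between 2 libraries and 2 is given here and below as a description, not as a test. NR3C1 at 6 h showed none either, at a log2 fold change of -0.02 (edgeR adjusted p = 0.936).

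**Figure D1:**
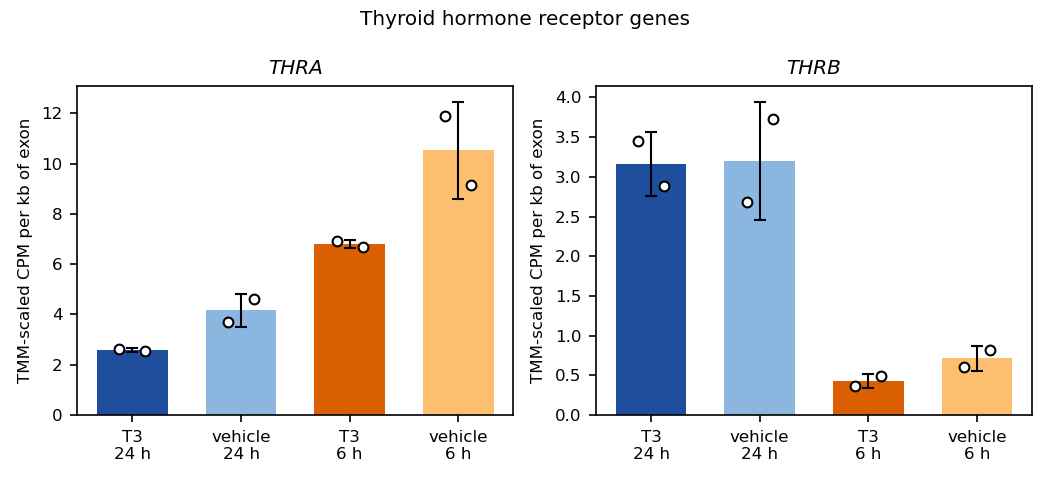
Level of THRA (left) and THRB (right) in TMM-scaled CPM per kb of exon, for T3 and vehicle at 24 h and at 6 h. Bars are means of 2 libraries, error bars are SD and circles are the libraries. THRA stood between 2.54 and 4.62 at 24 h and between 6.68 and 11.9 at 6 h, and THRB between 2.68 and 3.73 at 24 h and between 0.363 and 0.821 at 6 h.

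Per kb of exon, which allows levels of different genes to be set side by side, THRA averaged 2.58 ± 0.0636 CPM per kb in the 24 h T3 libraries and 4.16 ± 0.651 in the 24 h vehicle libraries (SD, n = 2 each). THRB averaged 3.17 ± 0.403 (T3) and 3.21 ± 0.742 (vehicle) CPM per kb at 24 h. At 6 h THRA averaged 6.80 ± 0.170 (T3) and 10.5 ± 1.93 (vehicle), and THRB 0.429 ± 0.0933 (T3) and 0.713 ± 0.153 (vehicle) CPM per kb. The ratio of THRA to THRB in a library was 0.762 and 0.882 (T3) and 1.38 and 1.24 (vehicle) at 24 h, and 19.1 and 13.5 (T3) and 19.7 and 11.2 (vehicle) at 6 h. The 8 ratios thus fell in separate ranges at the 2 times, below 1 only in the 24 h libraries labelled T3.

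THRB rose with time under both treatments, by 2.83 on the log2 scale in the T3 libraries (SE 0.28, edgeR adjusted p = 1.13e-07) and by 2.20 in the vehicle libraries (SE 0.28, edgeR adjusted p = 2.7e-06). THRA fell by 1.39 in the T3 libraries (SE 0.19, edgeR adjusted p = 4.59e-06) and fell by 1.34 in the vehicle libraries (SE 0.18, edgeR adjusted p = 7.01e-06). Both calls, under both treatments, were made in all 16 alternative settings, and with correction for GC content and transcript length the changes were 2.14 (T3) and 1.56 (vehicle) for THRB and -0.53 (T3) and -0.65 (vehicle) for THRA. Between T3 and vehicle, THRA was called lower with a log2 fold change of -0.70 at 24 h (SE 0.19, edgeR adjusted p = 0.0238) and of -0.64 at 6 h (SE 0.18, edgeR adjusted p = 0.0412). THRB passed the threshold at neither time, with log2 fold changes of -0.03 at 24 h (SE 0.21, edgeR adjusted p = 0.946) and -0.66 at 6 h (SE 0.36, edgeR adjusted p = 0.3). THRA and the REV-ERB-alpha gene NR1D1 lie tail to tail on opposite strands and share 263 bases of exon, 3.78% of the THRA exon length. Whether counting used the strand is not given in the sources used here, so reads in that stretch cannot be assigned to either gene. Over the 8 libraries, and among 10142 tested genes of at least 10 CPM, NUCB1, UBALD2 and COL5A1 followed THRA most closely (Pearson r = 0.994, 0.993 and 0.992 on log2 CPM), and SEC61A2, INA and HIPK2 followed THRB (r = 0.998, 0.997 and 0.997). These are descriptions over 8 libraries that share the time difference.

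The promoters of the 2 genes are shown because their transcripts moved in opposite directions with time. RefSeq (GRCh38.p14) gives windows of 300 bases, from 250 before to 50 after the transcript start, for 34 of the 38 receptors, 85 windows in all. The THRA window is chr17:40062715-40063014 on the plus strand and the first of 2 THRB windows is chr3:24495659-24495958 on the minus strand, with capitals marking GC boxes (GGGCGG, or CCGCCC for the other strand, overlapping matches counted).
THRA: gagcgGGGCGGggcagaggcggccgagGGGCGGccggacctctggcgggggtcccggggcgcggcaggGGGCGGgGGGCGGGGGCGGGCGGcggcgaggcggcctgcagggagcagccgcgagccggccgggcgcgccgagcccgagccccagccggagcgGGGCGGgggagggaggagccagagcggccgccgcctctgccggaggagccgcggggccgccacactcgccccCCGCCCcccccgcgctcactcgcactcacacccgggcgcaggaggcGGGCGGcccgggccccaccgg
THRB: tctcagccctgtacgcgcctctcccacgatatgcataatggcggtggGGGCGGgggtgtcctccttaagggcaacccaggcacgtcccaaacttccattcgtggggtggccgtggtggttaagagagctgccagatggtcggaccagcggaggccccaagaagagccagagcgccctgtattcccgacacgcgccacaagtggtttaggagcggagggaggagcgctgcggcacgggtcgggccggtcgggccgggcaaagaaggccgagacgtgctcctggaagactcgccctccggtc
The THRA window has 86.3% GC and 9 GC boxes, the THRB window shown 65.7% GC and 1 GC box, and the second THRB window 72.0% GC and 3 GC boxes. GC boxes occur in 45% of all 35116 RefSeq windows and in 54.1% of the receptor windows. The hexamer AGGTCA, searched on both strands and recognised by most of these receptors, is in none of these 3 windows, in 16.5% of the receptor windows and in 13.8% of all windows. The direct repeat of this hexamer with 4 bases between the copies (DR4), the classical thyroid hormone response element, is in none of the receptor windows and in 0.0199% of all windows. These letters describe the windows only.

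A receptor was counted as expressed in a group where both libraries had more than 3 counts and the mean was at least 1 CPM. By that measure 26 (T3) and 25 (vehicle) of the 38 receptors were expressed at 24 h and 27 (T3) and 26 (vehicle) at 6 h, 23 of them in every group. The order of levels per kb, taken without GC and length correction, differed between the times. NR3C1, the glucocorticoid receptor gene, was highest at 24 h with 31.4 (T3) and 23.6 (vehicle) CPM per kb, followed by NR1D2, which encodes the clock repressor REV-ERB-beta, with 27.9 (T3) and 19.4 (vehicle). At 6 h NR2F6, an orphan receptor gene of the COUP-TF family, was highest with 27.4 (T3) and 33.4 (vehicle) CPM per kb, and NR3C1 second with 19.1 (T3) and 19.4 (vehicle). Below these, neighbours in the order were close: in the 6 h T3 libraries RXRB and NR1H2 stood at 11.9 and 11.8 CPM per kb, a gap smaller than the spread of NR1H2 between its libraries. THRB was the last of the 27 expressed receptors in the 6 h T3 libraries by this measure. With GC and length correction, the log2 fold change of NR2F6 at 24 h over 6 h was -0.28 (T3) and -0.23 (vehicle), neither called.

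**Figure D2:**
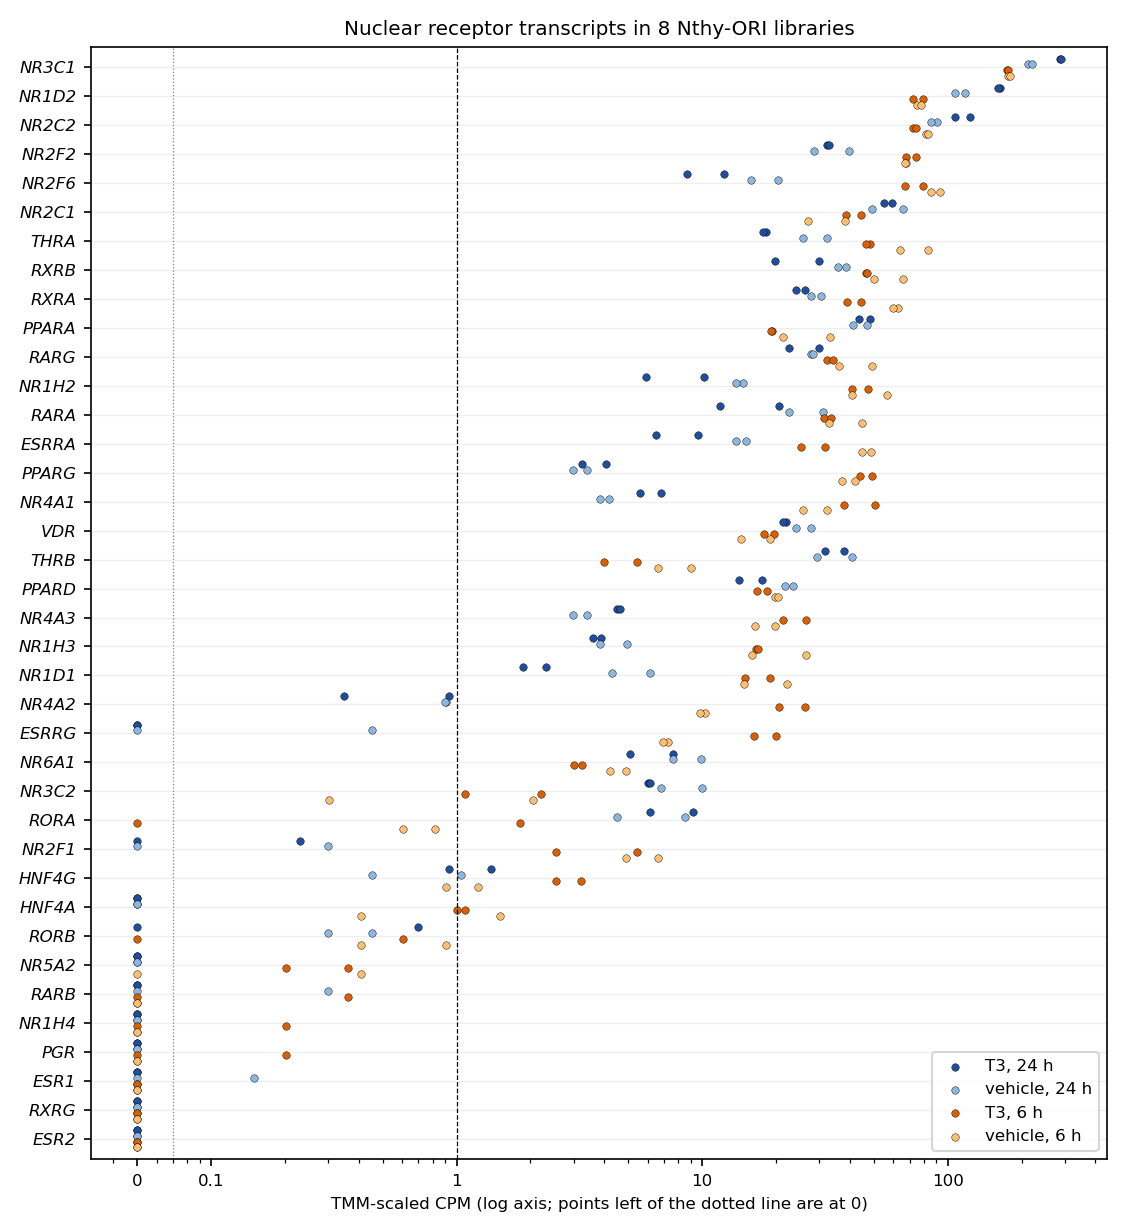
TMM-scaled CPM (log axis) of the 38 receptors, each row with 2 libraries per group, T3 and vehicle at 24 h above T3 and vehicle at 6 h; the dashed line is 1 CPM and points left of the dotted line are at 0. Rows are ordered by mean level, so NR3C1 is at the top, 23 receptors are expressed in all 4 groups, and RXRG and ESR2 have no count in any library.

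The receptors expressed in only some groups were NR2F1, NR3C2, NR4A2, ESRRG, RORA and HNF4G. ESRRG, an orphan receptor gene linked to oxidative metabolism, had 0 and 0 counts in the 24 h T3 libraries, 2 and 0 in the 24 h vehicle libraries, 55 and 81 in the 6 h T3 libraries and 24 and 17 in the 6 h vehicle libraries. It was therefore at least 88.5-fold lower at 24 h than at 6 h with T3 (3 counts assumed over the 24 h group), and 39.5-fold lower with vehicle (counting interval 10.3 to 338). NR2F1, the COUP-TF1 gene, had 0 and 2 counts (T3) and 0 and 2 counts (vehicle) at 24 h, against 7 and 27 (T3) and 22 and 12 (vehicle) at 6 h. It was 33.2-fold lower at 24 h with T3 (counting interval 8.51 to 285) and 32.8-fold lower with vehicle (8.41 to 282). Intervals are exact at the 95% level, and intervals and floors cover counting error only. RORA, an orphan receptor gene that activates clock genes, and NR3C2, the mineralocorticoid receptor gene, were expressed at 24 h only. NR3C2 had 6.05 and 6.13 CPM (T3) and 6.78 and 10.02 CPM (vehicle) at 24 h, against 1.09 and 2.21 (T3) and 0.301 and 2.05 (vehicle) at 6 h. RORA had 9.15 and 6.13 CPM (T3) and 4.52 and 8.52 CPM (vehicle) at 24 h, against 0 and 1.81 (T3) and 0.603 and 0.818 (vehicle) at 6 h. Both genes were higher in every 24 h library than in any 6 h library. HNF4G, a relative of HNF4A, had 6 and 12 counts (T3) and 2 and 7 counts (vehicle) at 24 h, and 7 and 16 (T3) and 3 and 3 (vehicle) at 6 h, a range in which no comparison passed the threshold without GC and length correction. With that correction it was called lower at 24 h than at 6 h with T3 (-2.16, edgeR adjusted p = 0.00584).

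No expression by this measure was found for RXRG, RARB, NR1H4, NR5A2, ESR1, ESR2, PGR, RORB and HNF4A, and these 9 were not tested. RXRG and ESR2 had no count in any library, which allows at most 3 counts, 0.366 CPM in the deepest library. The estrogen receptor gene ESR1, the progesterone receptor gene PGR, the bile acid receptor gene NR1H4, the retinoic acid receptor gene RARB and the LRH-1 gene NR5A2 had 3 counts or fewer in each library. RORB, a relative of RORA, had at most 6 counts. HNF4A, a regulator of liver and gut epithelium, had no count in any 24 h library, against 3 and 5 counts (T3) and 5 and 1 counts (vehicle) at 6 h.

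In the 24 h libraries labelled T3, against those labelled vehicle, 6 of the 29 tested receptors passed the threshold (20.7%), where 13.3% of all 14611 genes tested did. NR1D2 and NR3C1 were higher, as were 5.58% of all genes, and NR2F6, THRA, NR1D1 and ESRRA were lower, as were 7.75% of all genes. NR1D2 had 163.9 and 161.1 CPM (T3) and 118.0 and 107.6 CPM (vehicle) (log2 fold change 0.53, SE 0.12, edgeR adjusted p = 0.0107). NR3C1 had 286.6 and 289.1 CPM (T3) and 212.2 and 219.9 CPM (vehicle) (log2 fold change 0.41, SE 0.11, edgeR adjusted p = 0.0206). In both genes the T3 libraries lay close together and above both vehicle libraries. The median log2 fold change was -0.26 over the tested receptors and -0.01 over all genes.

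NR1D1, which encodes REV-ERB-alpha, a haem-binding repressor of the clock gene BMAL1, had 1.86 and 2.31 CPM (T3) and 4.29 and 6.13 CPM (vehicle), from 12 and 20 and from 19 and 41 counts. Its log2 fold change was -1.32 (SE 0.39, edgeR adjusted p = 0.036). NR2F6 had 12.2 and 8.67 CPM (T3) and 15.8 and 20.3 CPM (vehicle) (log2 fold change -0.82, SE 0.22, edgeR adjusted p = 0.0206). ESRRA, an orphan receptor gene that regulates mitochondrial genes, had 9.61 and 6.48 CPM (T3) and 15.1 and 13.8 CPM (vehicle) (log2 fold change -0.86, SE 0.25, edgeR adjusted p = 0.0311). The groups did not overlap in any of these 3 genes, which with 2 libraries each is a description only. ESRRA shares 284 exon bases with TRMT112 on the other strand, 9.37% of its exon length. The next receptors by p were NR2C2 at 0.39 (SE 0.13, edgeR adjusted p = 0.0538), NR1H2 at -0.79 (SE 0.27, edgeR adjusted p = 0.0578) and RARA at -0.72 (SE 0.25, edgeR adjusted p = 0.0673).

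**Figure D3:**
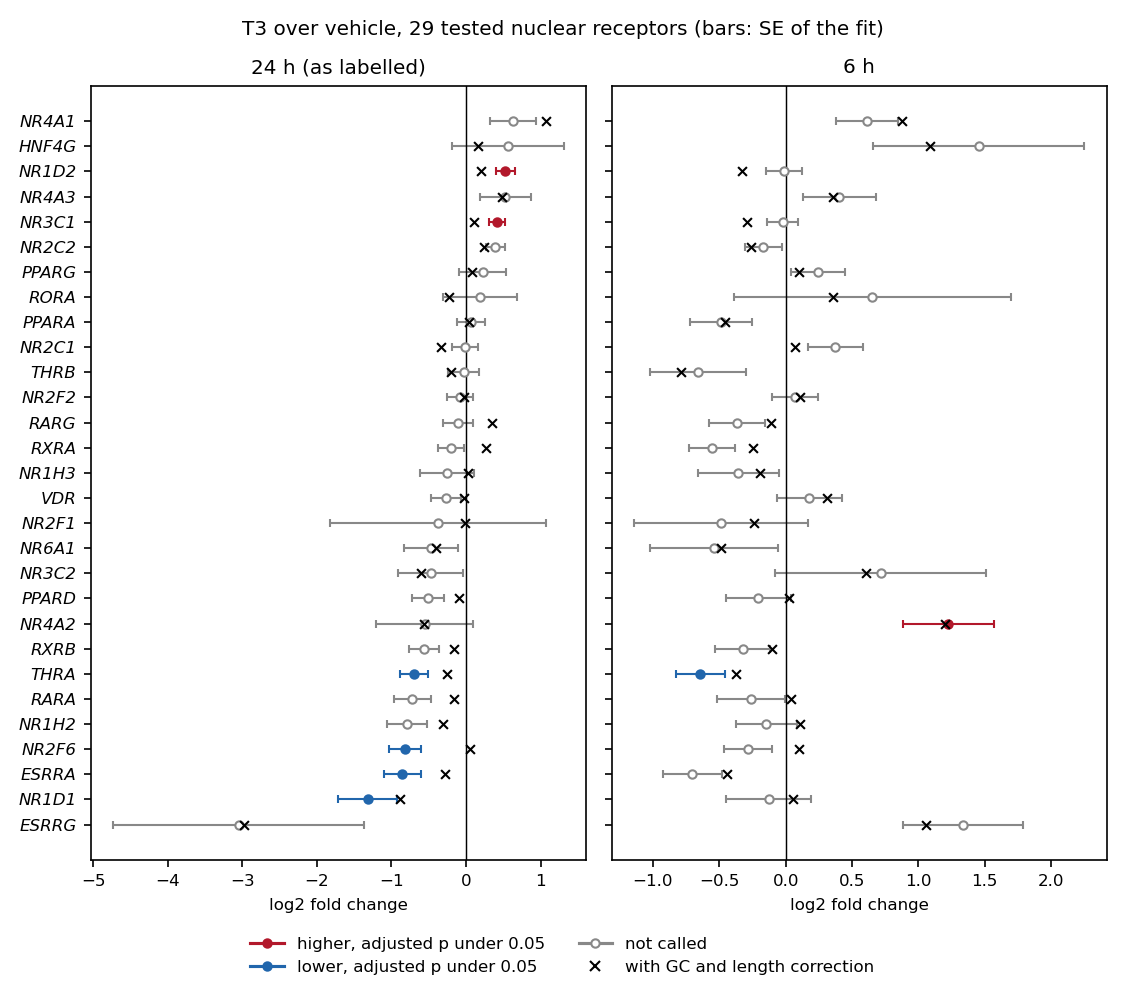
Log2 fold change of T3 over vehicle for the 29 tested receptors at 24 h (left, as labelled) and 6 h (right); circles are the edgeR estimates, bars their SE, filled circles an adjusted p under 0.05 and crosses the estimate with GC and length correction. At 24 h 6 receptors were called, and the crosses of those 6 all lie nearer to 0 than the circles; at 6 h NR4A2 and THRA were called.

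At 6 h of T3 2 of the 29 receptors passed the threshold (6.9%), near the 7.64% of all genes tested. NR4A2, which encodes the immediate early orphan receptor NURR1, was higher with 20.6 and 26.1 CPM (T3), against 10.2 and 9.82 CPM (vehicle) (log2 fold change 1.23, SE 0.35, edgeR adjusted p = 0.0392). Its family members NR4A1 and NR4A3 had log2 fold changes of 0.61 (SE 0.23, edgeR adjusted p = 0.114) and 0.41 (SE 0.27, edgeR adjusted p = 0.409), with no overlap between T3 and vehicle libraries in either. NR4A1 had 38.0 and 50.5 CPM (T3) and 32.2 and 25.8 CPM (vehicle). THRA, described above, was the receptor called lower. Over all genes 3.78% were called higher and 3.86% lower, and the median log2 fold change was -0.145 over the tested receptors and -0.02 over all genes. RXRA (-0.55, SE 0.17, edgeR adjusted p = 0.0602), ESRRA (-0.70, SE 0.22, edgeR adjusted p = 0.0621) and ESRRG (1.34, SE 0.45, edgeR adjusted p = 0.0828) came next.

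The T3 calls rested on few libraries. At 6 h neither NR4A2 nor THRA kept its call without any 1 of the 4 libraries compared: the adjusted p of NR4A2 was then 0.165 and 0.406 (without T3 replicate 1 or 2) and 0.303 and 0.15 (without vehicle replicate 1 or 2). The adjusted p of THRA was 0.259 and 0.293 (without T3 replicate 1 or 2) and 0.504 and 0.056 (without vehicle replicate 1 or 2). At 24 h NR1D2 alone kept its call in every leave-out, with a log2 fold change of 0.46 to 0.56 and a highest adjusted p of 0.0478. THRA at 24 h lost it without T3 replicate 2 (adjusted p = 0.0647) or vehicle replicate 2 (0.154), and NR2F6 without T3 replicate 2 (0.122) or vehicle replicate 2 (0.15). NR3C1 kept it among the libraries compared only without vehicle replicate 2 (0.0314), ESRRA only without T3 replicate 1 (0.0103) and NR1D1 only without vehicle replicate 1 (0.0324), and their highest adjusted p was 0.0885 (NR3C1), 0.157 (ESRRA) and 0.229 (NR1D1). Since the groups share 1 estimate of the spread, the libraries of the other time also counted. Without T3 replicate 1 or 2 of 6 h, NR3C1, ESRRA and NR1D1 all lost their 24 h call, leaving 3 receptors called. ESRRA also lost its 24 h call with either 6 h vehicle library left out (adjusted p = 0.0547 for replicate 1 and 0.051 for replicate 2), and NR1D1 lost it with the second of them left out (0.0509). The 24 h count was 2 receptors with vehicle replicate 2 of that time left out. Without either T3 library or the second vehicle library of 24 h, RXRA, ESRRA and ESRRG were also called at 6 h. The number called over all genes moved with the library left out as well. Receptor counts in the leave-outs are therefore not read as particular to the receptors.

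The direction of the T3 differences went with the GC content of the transcript, in the receptors as in all genes. With the receptors divided at 48%, the median of annotated tested genes, 15 of 16 receptors at or above it had a negative log2 fold change at 24 h, and 8 of 13 under it a positive one. At 6 h the same counts were 13 of 16 negative and 8 of 13 positive. Over all annotated genes at 24 h, 4914 of 6289 at or above 48% were negative and 4747 of 6288 under it positive. At 6 h these were 4477 of 6289 negative and 4431 of 6288 positive. Counted by calls at 24 h, 33 of all annotated genes were higher and 1010 lower at or above 48%, and 738 higher and 58 lower under it. The receptors called higher at 24 h, NR1D2 and NR3C1, have 38.5% and 39.1% GC, and those called lower, NR1D1, THRA, ESRRA and NR2F6, 59.5%, 60.0%, 63.2% and 71.1%. With each library's trend with GC content and length removed, no receptor was called at 24 h (log2 fold change of NR1D2 0.20, NR3C1 0.10, THRA -0.25, ESRRA -0.28, NR1D1 -0.89 and NR2F6 0.06). At 6 h NR4A2 stood at 1.20 (edgeR adjusted p = 0.0636) and THRA at -0.37 (0.256) after the correction, and NR4A1 was called higher at 0.88 (0.0332).

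**Figure D4:**
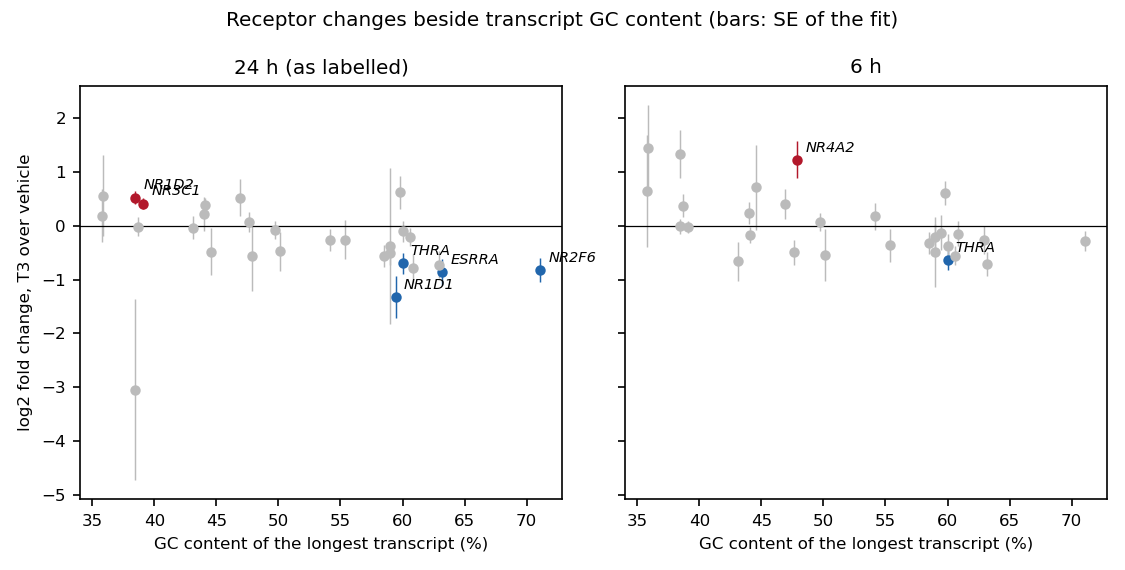
Log2 fold change of T3 over vehicle against GC content of the longest annotated transcript for the 29 tested receptors, at 24 h (left, as labelled) and 6 h (right); bars are SE, red is called higher, blue called lower and grey not called. At 24 h the 2 receptors called higher lie under 40% GC and the 4 called lower between 59.5% and 71.1%; the low point at 24 h is ESRRG, which rests on 2 counts.

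With the libraries as labelled, no receptor passed the threshold for a T3 response that differed between the times (24 h less 6 h), in edgeR, where 1.84% of all genes were called (0.849% higher and 0.992% lower), or in DESeq2. At an unadjusted p under 0.05 edgeR listed 6 receptors: NR1D2 (0.54), NR2C2 (0.56) and NR3C1 (0.44) with positive log2 differences, and NR4A2 (-1.79), NR1D1 (-1.19) and ESRRG (-4.38, from 2 counts at 24 h) with negative ones, all with an edgeR adjusted p of 0.142 to 0.261. Over all genes 2295 of 14611 were under the same unadjusted p, so that the receptors' count is read as near the background. For NR1D2 the log2 fold changes behind the difference were 0.53 at 24 h and -0.01 at 6 h, and for NR4A2 -0.56 at 24 h and 1.23 at 6 h. As labelled, THRA had a difference of -0.05 (SE 0.26, edgeR adjusted p = 0.957). These differences depend on the 24 h labels, which KLF9 and HR go against: with those labels exchanged every 24 h value would change sign, the 24 h and 6 h values of THRA would have opposite signs, and its difference would be larger.

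Time separated the receptors far more than T3 did, with the libraries taken as labelled. Between 24 h and 6 h, 25 of 29 receptors (86.2%) were called with T3, where 70.4% of all genes were, and 24 (82.8%) with vehicle, where 64.5% of all genes were. Of these, 9 were higher and 16 lower with T3, against 35.1% and 35.2% of all genes, and 8 were higher and 16 lower with vehicle, against 31.9% and 32.6%. The median log2 fold change of the receptors was -0.99 (T3) and -0.65 (vehicle), beside 0.02 and 0.03 over all genes tested. Under both treatments 7 receptors rose (NR1D2, NR2C1, NR3C1, NR3C2, PPARA, RORA and THRB) and 15 fell. Of the 15, 11 were called lower in every alternative setting under both treatments, and of the 7, THRB alone was called higher in every one. Of the 29, NR2F1, NR4A2, ESRRG, RORA and HNF4G averaged under 1 CPM at 1 of the times and passed the low-count filter through the other, so these counts are a description. The share of reads without a unique alignment also differed between the times, as given above, and it cannot be told apart from time, nor at 24 h from the T3 label. The 10 thyroid markers summed to 152 to 155 CPM (T3) and 149 to 194 CPM (vehicle) at 24 h, against 27.4 to 35.5 CPM (T3) and 42.5 to 43.4 CPM (vehicle) at 6 h. Most of the 24 h sum was PAX8, at 107.7 and 116.6 CPM (T3) and 113.9 and 154.7 CPM (vehicle). At 6 h PAX8 had 4.34 and 4.02 CPM (T3) and 9.95 and 13.5 CPM (vehicle), called lower with T3 (log2 fold change -1.47, edgeR adjusted p = 0.012). FOXE1 was called higher at 24 h than at 6 h under both treatments, and HHEX was called under neither. The 6 epithelial markers summed to 216 to 219 CPM (T3) and 245 to 306 CPM (vehicle) at 24 h, against 475 to 490 CPM (T3) and 482 to 542 CPM (vehicle) at 6 h. The part of these shifts in the receptor changes was not tested.

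**Figure D5:**
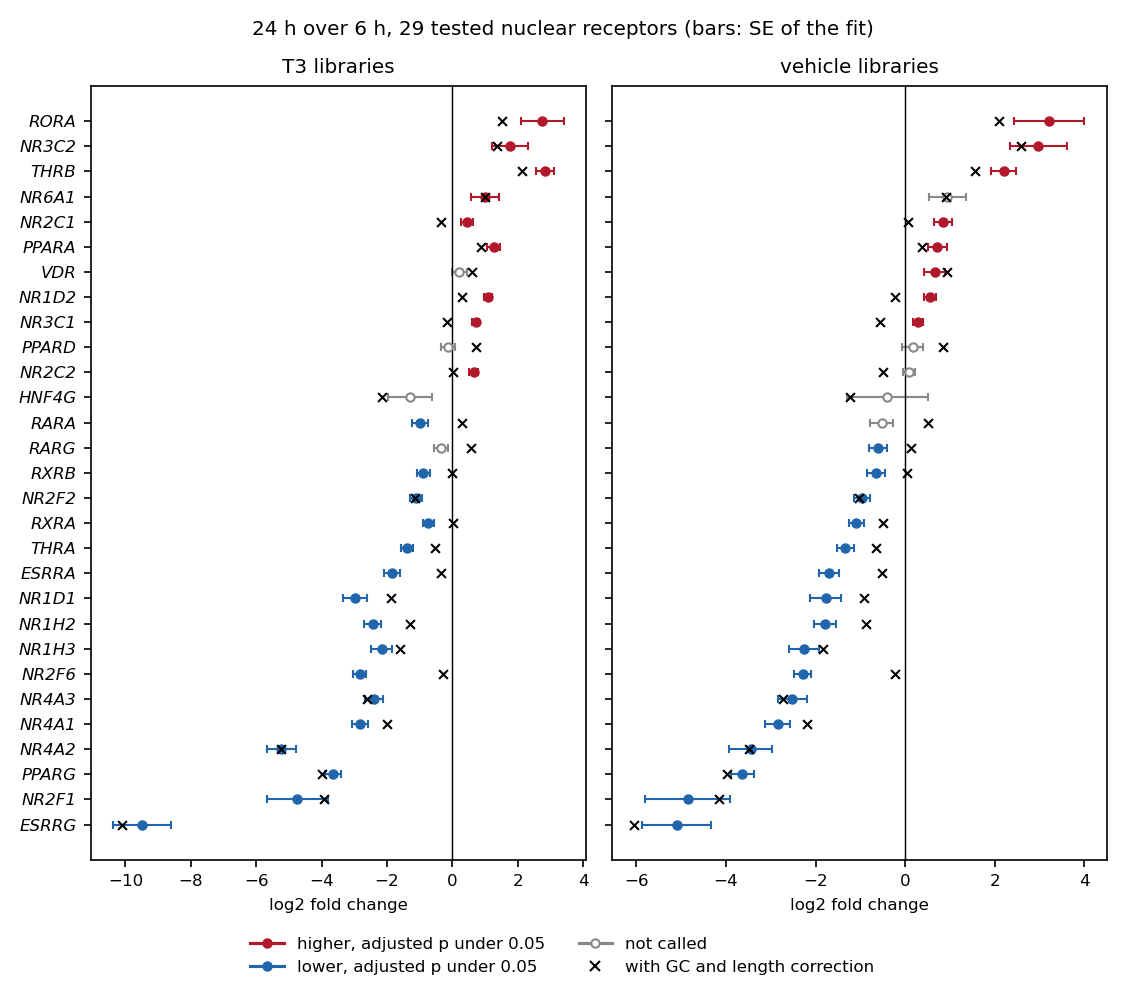
Log2 fold change of 24 h over 6 h for the 29 tested receptors in T3 libraries (left) and vehicle libraries (right; the axes differ in range); circles are edgeR estimates with SE bars, colours mark calls and crosses the estimate with GC and length correction. THRB, RORA and NR3C2 lie farthest to the right and ESRRG, NR2F1, PPARG and NR4A2 farthest to the left in both.

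Among the partners of the thyroid hormone receptors, RXRA fell to 24.2 and 26.1 CPM in the 24 h T3 libraries, against 39.1 and 44.5 CPM in the 6 h T3 libraries, and to 30.5 and 27.6 CPM in the 24 h vehicle libraries, against 63.0 and 60.1 CPM in the 6 h vehicle libraries. RXRB, whose exons overlap those of SLC39A7 by 244 bases, was lower as well (log2 fold change -0.89 with T3 and -0.65 with vehicle, edgeR adjusted p = 0.000936 and 0.00998). Neither RXRB change was called with GC and length correction (log2 fold change -0.01 with T3 and 0.04 with vehicle), and RXRA then stood at 0.01 with T3 and kept its call with vehicle alone. Of the retinoic acid receptor genes, RARA was called lower with T3 (-0.99, SE 0.26, edgeR adjusted p = 0.00248) and RARG with vehicle (-0.61, SE 0.21, edgeR adjusted p = 0.0163), and both calls were lost with that correction, at 0.31 (RARA, T3) and 0.12 (RARG, vehicle). RARG with T3, at -0.34 and not called before the correction, was called higher after it (0.58, edgeR adjusted p = 0.0119). VDR, the vitamin D receptor gene, was called higher with vehicle (0.66, SE 0.23, edgeR adjusted p = 0.0191) and not with T3 (0.22, SE 0.22, edgeR adjusted p = 0.384); the difference is the one tested above, -0.44 (SE 0.32, edgeR adjusted p = 0.543). With GC and length correction VDR was called higher with T3 as well (0.60, edgeR adjusted p = 0.0212).

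The 3 PPAR genes, which encode fatty acid receptors, went separate ways. PPARG, known for adipocyte differentiation, fell to 3.26 and 4.05 CPM (T3) and 3.39 and 2.99 CPM (vehicle) at 24 h, against 44.2 and 49.1 CPM (T3) and 37.1 and 42.1 CPM (vehicle) at 6 h. Its log2 fold changes were -3.66 with T3 (SE 0.24, edgeR adjusted p = 6.39e-10) and -3.63 with vehicle (SE 0.27, edgeR adjusted p = 3.87e-09), and at both times the T3 and vehicle libraries did not differ past the threshold. PPARA, which encodes the receptor that drives fatty acid oxidation in liver, rose by 1.26 with T3 (SE 0.21, edgeR adjusted p = 3.78e-05) and by 0.71 with vehicle (SE 0.21, edgeR adjusted p = 0.00684), a call lost with GC and length correction in vehicle (0.37, edgeR adjusted p = 0.125). PPARD was called in neither, at -0.13 with T3 (SE 0.23, edgeR adjusted p = 0.608) and 0.17 with vehicle (SE 0.23, edgeR adjusted p = 0.542), but with that correction it was called higher in both, at 0.73 with T3 (edgeR adjusted p = 0.00826) and 0.85 with vehicle (0.00391). The oxysterol receptor genes both fell, NR1H2 (LXR-beta) with log2 fold changes of -2.44 (T3) and -1.79 (vehicle) and NR1H3 (LXR-alpha) with -2.17 (T3) and -2.27 (vehicle), and the highest of the 4 edgeR adjusted p was 1.69e-05.

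All 3 NR4A genes, whose products are induced within hours by serum, cAMP and other stimuli, were far lower at 24 h. NR4A2 had 0.930 and 0.347 CPM (T3) and 0.904 and 0.897 CPM (vehicle) at 24 h, from 3 to 6 counts, against the values given above at 6 h, log2 fold changes of -5.23 with T3 (SE 0.45, edgeR adjusted p = 1.51e-08) and -3.44 with vehicle (SE 0.48, edgeR adjusted p = 7.93e-06). NR4A1 had 5.58 and 6.82 CPM (T3) and 3.84 and 4.19 CPM (vehicle) at 24 h, with log2 fold changes over 6 h of -2.83 (T3) and -2.85 (vehicle). For NR4A3 they were -2.40 (T3) and -2.52 (vehicle). The 3 genes kept these calls in every alternative setting. NR4A1 has an exonic overlap of 754 bases with a noncoding gene on the other strand, 10.3% of its exon length.

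Without GC and length correction, the paired REV-ERB genes moved in opposite directions with time. NR1D1 (chr17:40092787-40100725, minus strand) fell to 1.86 and 2.31 CPM in the 24 h T3 libraries, against 18.8 and 14.9 CPM in the 6 h T3 libraries (log2 fold change -2.97, SE 0.37, edgeR adjusted p = 1.56e-06). In the vehicle libraries it fell to 4.29 and 6.13 CPM at 24 h, against 14.8 and 22.1 CPM at 6 h (log2 fold change -1.78, SE 0.35, edgeR adjusted p = 0.000248). NR1D2 (chr3:23945260-23980618, plus strand) rose to 163.9 and 161.1 CPM at 24 h with T3, against 72.4 and 79.1 CPM at 6 h, and to 118.0 and 107.6 CPM at 24 h with vehicle, against 75.0 and 78.2 CPM at 6 h. Its log2 fold changes were 1.10 (T3, SE 0.13, edgeR adjusted p = 7.12e-07) and 0.56 (vehicle, SE 0.13, edgeR adjusted p = 0.00134). After the GC and length correction they were 0.30 (T3, called) and -0.23 (vehicle, not called). NR1D1 kept its call in every setting. Their promoters are shown for the same reason as those of THRA and THRB: NR1D1 from chr17:40100540-40100839 on the minus strand, and the second of 2 NR1D2 windows, chr3:23945871-23946170 on the plus strand, where capitals mark GC boxes and the E-box CACGTG, the site that CLOCK and BMAL1 recognise.
NR1D1: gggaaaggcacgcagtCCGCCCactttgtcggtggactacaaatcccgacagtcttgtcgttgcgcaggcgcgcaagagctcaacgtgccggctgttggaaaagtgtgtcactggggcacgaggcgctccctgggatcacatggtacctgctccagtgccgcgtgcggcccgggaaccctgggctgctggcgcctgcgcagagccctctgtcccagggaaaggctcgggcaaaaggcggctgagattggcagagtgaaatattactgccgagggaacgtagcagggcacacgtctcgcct
NR1D2: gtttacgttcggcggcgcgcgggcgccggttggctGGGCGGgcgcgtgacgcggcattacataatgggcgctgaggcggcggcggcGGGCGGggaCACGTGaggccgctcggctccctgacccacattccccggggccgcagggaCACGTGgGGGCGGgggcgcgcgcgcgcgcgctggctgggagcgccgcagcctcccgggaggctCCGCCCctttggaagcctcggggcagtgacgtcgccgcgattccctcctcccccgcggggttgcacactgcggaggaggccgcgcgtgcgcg
The NR1D2 window holds 2 E-boxes and 4 GC boxes at 77.3% GC, and the NR1D1 window 1 GC box and no CACGTG at 63.0% GC. The first NR1D2 window, chr3:23945036-23945335, holds no E-box and 5 GC boxes at 72.3% GC. E-boxes are in 9.41% of the receptor windows and in 7.26% of all windows.

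Of the COUP-TF family, NR2F2, which encodes COUP-TF2, fell with log2 fold changes of -1.11 (T3) and -0.96 (vehicle) (edgeR adjusted p = 1.73e-05 and 0.000137), and NR2F6 with -2.83 (T3) and -2.29 (vehicle) (edgeR adjusted p = 1.72e-09 and 2.83e-08). NR2F6 has the highest GC content of the tested receptors, 71.1%, and with GC and length correction its changes were -0.28 (T3) and -0.23 (vehicle), neither of them called. An annotated gene on the same strand covers 221 bases of its exons (8.26%). The genes of the TR2 and TR4 orphan receptors, NR2C1 and NR2C2, were higher with T3 (0.45 and 0.65, edgeR adjusted p = 0.0396 and 0.000333), NR2C1 also with vehicle (0.84, edgeR adjusted p = 0.00141), and with correction none of these was called, while NR2C2 was then called lower with vehicle (-0.49, edgeR adjusted p = 0.00414) and NR2C1 stood at -0.35 with T3. NR2C2 shares 1197 exon bases (10.1%) with MRPS25 on the other strand. NR3C1 rose by 0.71 with T3 (SE 0.11, edgeR adjusted p = 2.1e-05) and by 0.28 with vehicle (SE 0.11, edgeR adjusted p = 0.04), but with correction the vehicle change was called lower, at -0.57 (edgeR adjusted p = 0.000176), and that with T3 was -0.18 (0.131). NR3C2 rose by 1.77 with T3 (SE 0.55, edgeR adjusted p = 0.00838) and by 2.97 with vehicle (SE 0.64, edgeR adjusted p = 0.000612), and RORA by 2.75 with T3 (SE 0.66, edgeR adjusted p = 0.00135) and 3.21 with vehicle (SE 0.79, edgeR adjusted p = 0.00193). With correction RORA lost its T3 call (1.51, edgeR adjusted p = 0.0529). ESRRA fell with log2 fold changes of -1.85 (T3) and -1.70 (vehicle) (edgeR adjusted p = 2.59e-06 and 5.73e-06), and with correction stood at -0.36 with T3, no longer called. NR6A1, the gene of the orphan germ cell nuclear factor, was called higher with T3 (1.01, SE 0.42, edgeR adjusted p = 0.0431) and was at 0.94 with vehicle (SE 0.42, edgeR adjusted p = 0.0582).

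Lists of receptor cofactors and of genes known to respond to these receptors were read beside them, all for T3 over vehicle. Of all genes, 13.3% were called at 24 h and 7.64% at 6 h. The shares at 24 h and 6 h were 14.3% and 0% (coactivators), 44.4% and 22.2% (T3 targets) and 13.3% and 6.67% (clock). For receptor targets they were 28.6% and 14.3% (glucocorticoid), 42.9% and 14.3% (estrogen-related) and 14.3% and 0% (oxysterol). Retinoid genes had 0% and 11.1%. Each list has few tested members, so these shares are a description. Among the corepressor genes, TBL1XR1 and NRIP1 were higher at 24 h (log2 fold changes 0.54 and 0.49), and GPS2 (-2.10) and TBL1X (-0.54) were lower at 6 h. The 6 h vehicle libraries of GPS2 lay far apart, at 39.5 and 14.7 CPM. Of 14 coactivator genes PPRC1 (-0.46) and PRMT1 (-0.40) were lower at 24 h and none was called at 6 h. Of the 9 tested T3 target genes, KLF9, HR and DBP (-1.44) were lower and TXNIP (0.45) was higher at 24 h, and KLF9 and HR were higher at 6 h. Of the 15 clock genes, on which the REV-ERB and ROR receptors act, PER1 (-2.05) and DBP were lower at 24 h and BHLHE40 (-0.72) at 6 h. The glucocorticoid receptor list shares KLF9 and PER1 with these lists, and no other of its 7 tested members was called. Of 7 tested estrogen-related receptor targets, CYCS (0.71) and SOD2 (0.54) were higher and ESRRA itself lower at 24 h, and CYCS (0.81) was higher at 6 h. ABCA1, which encodes a cholesterol exporter and is an oxysterol receptor target, was higher at 24 h (0.60), alone of 7 tested members. TGM2 (-1.70) was the 1 member of 9 tested retinoid genes called at 6 h, with none at 24 h. None of the 6 tested PPAR targets and neither of the pair of tested vitamin D genes was called at either time. All these calls are by edgeR with an adjusted p of 0.0479 or less. They are without GC and length correction, and values with it are not given here for the lists. Most directions went with GC content, divided at 48% as above. Among the named genes with a GC value, the exceptions were KLF9 (46.3%) at 24 h and HR (65.7%) and TBL1X (47.6%) at 6 h. Whether these calls are responses of cofactors and targets apart from that trend was not tested.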

How the data were processed

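Ribosome-depleted total RNA was sequenced for 8 libraries, and the authors deposited 1 table of raw counts per gene symbol for each, with no normalisation. The submitters' processing notes name CASAVA 1.7, STAR 2.7, HTSeq, DESeq2 and the hg38 build. Neither the annotation release nor the strand setting is given in the sources used here. The 5 summary rows of each table (reads outside features, not unique and the like) were left out, and reads in genes made up 12.9% to 24.4% of a table.

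Groups followed the labelled treatment and time. All genes were fitted together with edgeR 4.0.16 in R 4.3.3: TMM scaling, filterByExpr by group (14611 genes kept), robust quasi-likelihood F tests, a coefficient for each group and all 8 libraries (4 residual degrees of freedom, biological coefficient of variation 13.1%), and Benjamini-Hochberg adjustment over all genes tested with a threshold of 0.05. The test was tried on simulated counts first. Replicates differed beyond sampling noise in each group, and none was identical. The size of this spread was unequal. The chi-square per gene between replicates was 27 (vehicle) and 7.21 (T3) at 24 h, and 3.84 (vehicle) and 2.57 (T3) at 6 h. The fit shared its estimate of the spread across the groups, including the 24 h vehicle group with the largest value. Separate estimates for each group were not tried, and the effect on the calls was not tested.

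Positions, exon length and GC content came from the GENCODE 29 annotation of GRCh38, matched by symbol for all 38 receptors. Alternatives were DESeq2 1.42.0, other scalings, no low-count filter, only the libraries compared, lowess offsets for GC content and length (span 0.3), a replicate block and each library left out. Named in detail were THRA, THRB, receptors called for T3, the 6 largest changes with time per treatment, KLF9, HR and up to 4 called members of each list. The receptors and lists were chosen with earlier results of these data known. Some members of these lists are not reported here.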

Additional observations from a re-analysis of the deposited data

Results flagged for a closer look

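KLF9 and HR, the established T3 targets used to check the labels, responded in opposite directions at the 2 times, and the difference itself was tested (edgeR, T3 over vehicle at 24 h less that at 6 h). For KLF9 the difference was -7.03 on the log2 scale (SE 0.57, edgeR adjusted p = 4.08e-06). It had 2.79 and 3.35 CPM (T3) and 20.8 and 31.4 CPM (vehicle) at 24 h, and 13.4 and 14.1 CPM (T3) and 0.904 and 0.818 CPM (vehicle) at 6 h. For HR the difference was -4.96 (SE 0.54, edgeR adjusted p = 0.000128), from 0.310 and 0.116 CPM (T3) and 4.29 and 3.89 CPM (vehicle) at 24 h, and 115.8 and 101.8 CPM (T3) and 68.4 and 58.5 CPM (vehicle) at 6 h. The 24 h T3 value of HR rests on 3 counts.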

How the results depend on the processing

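The number of receptors called for T3 over vehicle moved with most choices. At 24 h 6 were called, against 3 with DESeq2, 1 with only the libraries compared, 0 with GC and length correction and 0 with that correction and a replicate block, and 2 to 5 when 1 library was left out. Over all settings other than leave-outs the 24 h count ranged from 0 to 8. At 6 h 2 were called, against 0 with DESeq2, 6 with only the libraries compared, 1 with GC and length correction, 0 with a replicate block, 0 with block and correction, and 0 to 5 when 1 library was left out. NR2F6 at 24 h turned its sign with GC and length correction (log2 fold change 0.055, and 0.06 with the block added). The correction's own construction removes each library's trend with GC content and length; for the other settings the cause was not tested.

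Calls between 24 h and 6 h stayed within 1.5 times of the 25 (T3) and 24 (vehicle) reported: 19 to 25 (T3) and 19 to 25 (vehicle) over the settings, and 22 to 25 (T3) and 18 to 26 (vehicle) over the leave-outs. As labelled, the difference of T3 responses gave 0 receptors in every setting run. It was not run with only the libraries compared, which would be the same fit. Over all genes, T3 calls numbered 52 to 1980 at 24 h and 248 to 2898 at 6 h over the settings other than leave-outs, beside 1948 and 1117 reported. The number of T3 calls over all genes moved over the leave-outs as well.

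Deviations of libraries with equal replicate numbers correlated at -0.044 (24 h) and -0.004 (6 h) between T3 and vehicle. Between the times they correlated at -0.029 (T3) and 0.097 (vehicle). These values show no strong shared deviation, but they cannot show whether the cultures were paired by design. With the block 7 receptors were called at 24 h. Where a receptor had 3 counts or fewer over a group of 2 libraries, its fold had only a lower limit or a wide counting interval.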
